A study of Mus musculus with 11 samples.

Results

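Zfp genes encode proteins with C2H2 zinc fingers, and 339 genes with a symbol made of Zfp and a number had a probe on the array (Zfp36, which acts on mRNA decay with a different kind of finger, was left out). The 271 Zfp genes described here were those with a signal well above background on all 11 arrays, each stood for by its brightest probe. The whole table held 25079 genes or unnamed features. RNA came from 4 lines of L-GMP cells, mouse granulocyte-macrophage progenitors of the C57BL/6 background transformed by the MLL-AF9 fusion oncogene and derived from leukaemic mice. All groups carried floxed alleles of Jmjd2a, Jmjd2b and Jmjd2c (now Kdm4a, Kdm4b and Kdm4c, which encode demethylases of histone H3 lysine residues) and the tamoxifen-activated recombinase CreERT2 at the Rosa26 locus. They grew in RPMI with 20% FBS and 10 ng/ml IL-3. The groups were cells before 500 nM 4-hydroxytamoxifen (OHT) was added (0 h, 4 arrays), and cells at 48 h (4 arrays) and 96 h (3 arrays) of OHT. OHT-treated cells without floxed alleles and untreated cells at later times were not analysed here, so gene loss, exposure to OHT or to active recombinase, and time in culture cannot be told apart. The labels do not say how each array relates to each line, so p-values measure the spread between these samples.

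The members were selected on detection and mean signal, which include all 3 times, so the levels of the genes are given without a test, while differences between times were not part of the rule. Of the 339 genes, 306 were well above background on at least 3 arrays and were tested. Of these, 35 missed at least 1 array, and 33 genes were not tested. The members and the gene lists below were chosen with earlier results of these data known, so no p-value is given for a list as a whole.

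Most C2H2 zinc finger proteins bind DNA, each finger contacting a few bases. Many carry a KRAB domain, which brings in the corepressor Trim28 and, with it, the methyltransferase Setdb1, which places trimethylation on histone H3 lysine 9 (H3K9me3). In mice these proteins are best known for keeping retroelements silent, many of their genes lie side by side in clusters, and the clusters often carry H3K9me3 themselves, the mark that Kdm4 demethylases remove. Other Zfp proteins have no KRAB domain and work as activators, RNA-binding proteins or ribosome factors.

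Values below are scaled log2 signals, that is log2 of the processed signal minus the 75th percentile of the array, and differences are between group means on that scale. The transcripts of the floxed genes fell at 48 h against 0 h, with log2 differences of -1.59 for Kdm4a, -3.30 for Kdm4b and -4.95 for Kdm4c. At 96 h against 0 h they were -1.20, -3.24 and -4.60, and all 6 were called. Kdm4c was well above background on 2 of the 4 arrays at 48 h. The 0 h and 48 h arrays shared 1 slide and the 96 h arrays were on another, so slide and time cannot be told apart for 96 h. All 12 progenitor markers and all 8 neutrophil markers were well above background on all 11 arrays. The summed linear signal of the neutrophil markers was 54.3 to 553 on 0 h arrays, 161 to 579 on 48 h arrays and 775 to 1454 on 96 h arrays. Of the 8, 1 was called higher at 48 h and 3 at 96 h against 0 h (10.5% and 6.18% of all features). The progenitor markers summed to 965 to 1178, 1293 to 1360 and 1214 to 1246 at the 3 times. Of these 12, 1 was called higher and 2 lower at 48 h (10.5% and 8.03% of all features). At 96 h against 0 h, 1 was called higher and 0 lower (6.18% and 3.38%). Among markers of other cells, 2 of 5 erythroid, 3 of 6 B and T cell and 2 of 5 stromal markers were above background on all 11 arrays. Hbb-b1 and Cdh5 were so on none. Their summed signals at 0, 48 and 96 h were 0.417 to 0.519, 0.455 to 0.796 and 0.446 to 0.510 for erythroid markers. They were 14.4 to 19.3, 10.7 to 13.2 and 8.22 to 12.6 for B and T cell markers, and 1.70 to 3.14, 1.42 to 2.01 and 1.83 to 2.10 for stromal markers. Of the 5 B and T cell markers tested, 1 was called lower at 48 h and 2 at 96 h against 0 h, and 0 higher. Whether a change in cell makeup took part in any difference below was not tested, and in such bulk RNA fewer cells of a type and less RNA per cell cannot be told apart.

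At 48 h against 0 h more Zfp genes fell than rose. Of the 271 members, 56 (20.7%) were called lower and 16 (5.9%) higher by limma at an adjusted p under 0.05. By comparison, 8.03% of all features were called lower and 10.5% higher. The median log2 difference of the members was -0.20, against 0.12 for all features tested and -0.01 for the 12238 other named genes that were also above background on all arrays. On 67 members (24.7%) every 48 h array lay below every 0 h array, against 9.82% of all features, and on 21 (7.75%) every 48 h array lay above, against 14.1%. The called falls were mostly moderate, with a median of -0.55 and a range of -0.31 to -1.18. Of the 271 members, 5 changed by at least 2-fold and were called (1.85%, against 3.6% of all features).

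The level of the whole array depends on the scaling, and with each array centred on its median the median of all features was -0.10 at 48 h and -0.28 at 96 h, against 0.12 and 0.11 with the 75th percentile. The members' median minus that of all features, which these scalings cannot change, was -0.32 at 48 h. It was -0.15 with normexp and quantile normalization, -0.15 in the authors' deposited table and -0.43 with no filter on dim probes. With median scaling 43 members were called lower and 0 higher at 48 h (7.70% of all features lower). No called rise at 48 h or 96 h against 0 h held under median scaling. Quantile normalization called 58 lower and 15 higher at 48 h. The number called lower was 26 without 48 h replicate 4 (4.21% of all features then), 30 without 0 h replicate 3 (4.53%), 33 without 0 h replicate 4 (4.46%) and 34 without 48 h replicate 1 (4.76%). The number called higher was 10 without 48 h replicate 1. On the arrays themselves the median of the members stood above that of all features by 0.36 to 0.60 at 48 h, against 0.57 to 0.80 at 0 h. Each 48 h array stood lower on this measure than the 0 h array of the same number, with 0.36, 0.42, 0.60 and 0.38 at 48 h against 0.57, 0.58, 0.80 and 0.73 at 0 h for replicates 1 to 4, and the groups overlapped only between different numbers. Members had to be above background on all 11 arrays, all features on at least 3, which bears on the sign of this offset. Against features above background on all 11 arrays it was -0.85 to -0.68 at 48 h and -0.74 to -0.58 at 0 h.

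**Figure D1:**
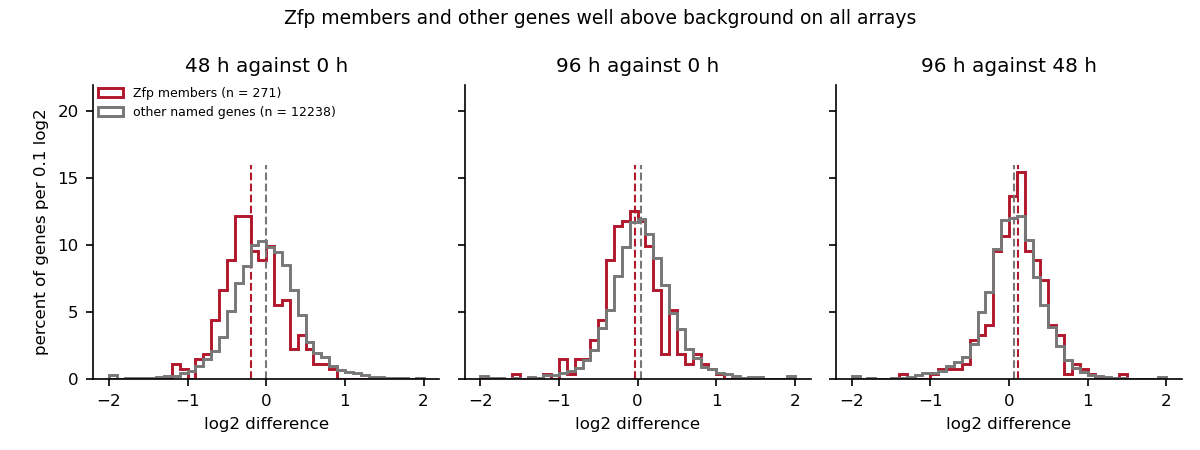
Histograms of log2 differences for the 271 Zfp members and for 12238 other named genes above background on all 11 arrays, as percent of genes per bin of 0.1, one panel per comparison, with dashed lines at the medians and values beyond -2 or 2 drawn in the end bins. The members' median lies left of the other genes at 48 h against 0 h (-0.20 and -0.01) and close to theirs at 96 h against 0 h (-0.04 and 0.04) and at 96 h against 48 h (0.11 and 0.07).

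Among the 12 members that fell most at 48 h was Zfp110. It encodes Nrif1, a protein first described for binding the neurotrophin receptor p75. Its probe (A_51_P475298, chromosome 7) read 1.88, 2.30, 2.18 and 1.90 at 0 h, 0.82, 0.72, 1.22 and 0.82 at 48 h, and 1.04, 0.97 and 0.80 at 96 h (scaled log2 signal). Every later array lay below the lowest of the 0 h arrays. The fall was 2.25-fold at 48 h (log2 difference -1.17, SE 0.14, adjusted p = 0.00199) and 2.19-fold at 96 h (log2 difference -1.13, SE 0.15, adjusted p = 0.00622). Zfp647 (A_51_P469252, chromosome 15) read -0.98, -1.32, -0.87 and -0.93 at 0 h, -1.98, -2.38, -1.76 and -2.10 at 48 h, and -1.87, -1.96 and -2.22 at 96 h. Here too no array at 48 h or 96 h reached the 0 h arrays, with log2 differences of -1.03 ± 0.15 (SE, adjusted p = 0.00357) and -0.99 ± 0.17 (SE, adjusted p = 0.0121).

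Zfp938 (A_52_P405876, chromosome 10) was a dim probe that lost further signal, at -2.29, -2.57, -1.72 and -1.80 at 0 h, -3.46, -3.29, -2.79 and -3.24 at 48 h, and -3.57, -3.64 and -3.77 at 96 h. The 3 groups did not overlap, and the log2 difference was -1.10 ± 0.21 (SE, adjusted p = 0.00803) at 48 h and -1.56 ± 0.22 (SE, adjusted p = 0.00712) at 96 h, which was 2.95-fold. With normexp and quantile normalization its differences were -0.40 and -0.54 and those of Zfp647 -0.55 and -0.54, all still called. Zfp882 (A_55_P2118891, chromosome 8) read -2.40, -2.45, -2.17 and -2.36 at 0 h, -3.95, -3.30, -3.60 and -3.01 at 48 h, and -2.68, -3.28 and -2.87 at 96 h. All later arrays lay below the 0 h arrays, but the log2 difference was called at 48 h (-1.12, adjusted p = 0.00702) and not at 96 h (-0.60, adjusted p = 0.104). The 48 h difference of Zfp882 was -0.33 with normexp and quantile normalization, still called. Zfp819 (A_55_P1971630, chromosome 7) read -0.77, -1.04, -0.51 and 0.13 at 0 h, -1.56, -1.61, -1.94 and -1.78 at 48 h, and -1.14, -1.58 and -1.23 at 96 h. Its 0 h arrays spread over more than 1 log2 unit yet stayed above every later array, and its difference of -1.18 at 48 h was called (adjusted p = 0.00898). The 96 h difference of -0.77 was not (adjusted p = 0.0725).

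Zfp105 (A_51_P415225, chromosome 9) read 1.27, 1.07, 1.82 and 1.23 at 0 h, 0.40, 0.32, 0.77 and 0.37 at 48 h, and 0.34, 0.68 and 0.38 at 96 h. Both later groups lay below the 0 h arrays without overlap, with almost equal differences of -0.88 at 48 h (adjusted p = 0.00987) and -0.88 at 96 h (adjusted p = 0.0234). Zfp760 (A_55_P1999022, chromosome 17) read -1.98, -1.40, -0.97 and -1.96 at 0 h, -2.62, -2.54, -1.89 and -2.77 at 48 h, and -2.24, -1.66 and -2.22 at 96 h. Its 48 h and 0 h arrays overlapped, and the call (-0.88, adjusted p = 0.0467) was lost under 11 of 22 alternatives. The other members of this group were Zfp783 (-0.80, adjusted p = 0.0273), Zfp598 (-0.75, adjusted p = 0.00667), Zfp689 (-0.73, adjusted p = 0.0248), Zfp639 (-0.70, adjusted p = 0.0182) and Zfp664 (-0.70, adjusted p = 0.0361), each given as its log2 difference at 48 h. Zfp664 lost its call under 11 and Zfp689 under 7 of the alternatives. Further probes of these genes differed by -0.07 for Zfp664 and by 0.16 and -0.19 for Zfp689, none of them called. The calls of Zfp105, Zfp110, Zfp598, Zfp639, Zfp647, Zfp819, Zfp882 and Zfp938 at 48 h held under all 22 alternatives.

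**Figure D2:**
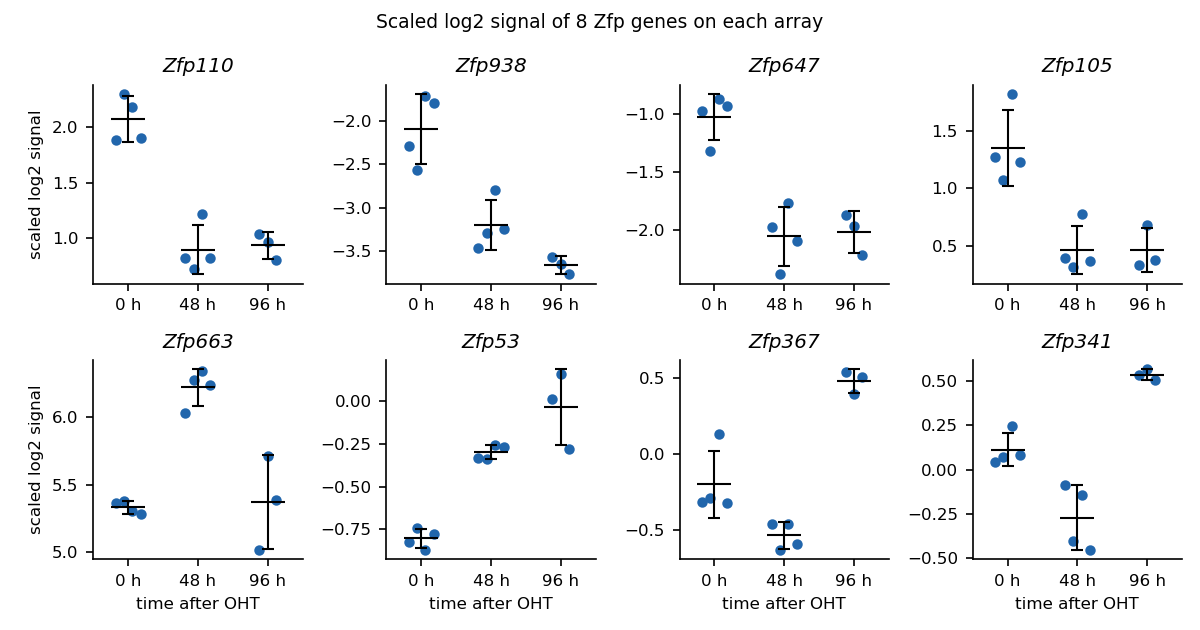
Scaled log2 signal on each array (points) of 8 Zfp genes at 0 h, 48 h and 96 h of OHT, with the group mean (wide bar) and SD (whiskers), each panel on its own axis. Zfp110, Zfp938, Zfp647 and Zfp105 were lower at 48 h and 96 h than at 0 h on every array, Zfp663 was higher at 48 h alone, Zfp53 was higher at both times, and Zfp367 and Zfp341 were lowest at 48 h and highest at 96 h.

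The 12 members that rose most at 48 h were led by Zfp663. Its probe (A_55_P2131274, chromosome 2), among the 5 brightest of the family, read 5.36, 5.38, 5.30 and 5.28 at 0 h, 6.03, 6.27, 6.34 and 6.24 at 48 h, and 5.01, 5.71 and 5.39 at 96 h. The 48 h arrays stood above all others and the 96 h arrays spread around the 0 h level, with a rise of 0.89 ± 0.14 (SE, adjusted p = 0.00456) at 48 h and a difference of 0.04 at 96 h. The remaining rises at 48 h were Zfp957 (0.86, adjusted p = 0.0165), Zfp971 (0.74, adjusted p = 0.0066), Zfp111 (0.74, adjusted p = 0.00798), Zfp563 (0.72, adjusted p = 0.0197), Zfp286 (0.68, adjusted p = 0.0152), Zfp790 (0.65, adjusted p = 0.0272), Zfp597 (0.61, adjusted p = 0.00456), Zfp41 (0.56, adjusted p = 0.0211), Zfp648 (0.54, adjusted p = 0.0228), Zfp931 (0.52, adjusted p = 0.00923) and Zfp53 (0.51, adjusted p = 0.0108) on the log2 scale. Of these, all but Zfp790 had no overlap between the 48 h and 0 h arrays. A further probe of Zfp931 rose as well (0.65, adjusted p = 0.0063), a further probe of Zfp111 differed by 0.61 (adjusted p = 0.0841), and that of Zfp790 differed by -0.14 (adjusted p = 0.45). Under normexp correction with quantile normalization Zfp957, Zfp971, Zfp563 and Zfp286, all dim, were no longer called.

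Some Zfp proteins have a described role, and 35 such genes were listed. Of these, 28 were members and 31 were tested. At 48 h against 0 h, 9 of the 31 were called lower and 0 higher (8.03% and 10.5% of all features), with a median of -0.33. At 96 h the counts were 3 lower and 1 higher (3.38% and 6.18% of all features), with a median of -0.11. Of the 9, Zfp516, a cofactor of brown fat gene programmes in mice, was no member: it was well above background on 0 of 4 arrays at 48 h and 3 of 4 at 0 h, so its size of change is not given. Transcription factors among them fell in part: Zfp410, which switches on the chromatin remodeller gene Chd4, fell at both times, with log2 differences of -0.62 ± 0.12 (SE, adjusted p = 0.00861) at 48 h and -0.61 ± 0.13 (SE, adjusted p = 0.0219) at 96 h. Its further probe fell too (-0.50, adjusted p = 0.0365, and -0.66, adjusted p = 0.0301). The 96 h call of Zfp410 was lost under 5 of 22 alternatives. Zfp410 read 1.32, 1.46, 1.76 and 1.62 at 0 h, 0.91, 0.87, 1.07 and 0.83 at 48 h, and 0.88, 0.82 and 1.10 at 96 h. No later array reached the 0 h range, while Chd4 itself differed by -0.07 and 0.28 (adjusted p = 0.617 and 0.114). Zfp143, a promoter-bound activator, fell by 0.44 at 48 h (adjusted p = 0.00719) and Zfp281, a factor of stem cell gene programmes, fell by 0.41 (adjusted p = 0.0149). Zfp148, which binds GC-rich promoters, differed by 0.02 at 48 h and -0.06 at 96 h on its member probe and was not called. Its further probe differed by 0.19 at 48 h (adjusted p = 0.181). That probe was called lower at 96 h against 0 h (-0.41, adjusted p = 0.0389) and against 48 h (-0.60, adjusted p = 0.00951). Zfp384, the mouse gene of a human leukaemia fusion partner, differed by -0.39 and -0.44, not called.

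Of 6 listed genes grouped here as acting on ribosomes, RNA or the spindle, 3 were called lower at 48 h (8.03% of all features). Zfp598, the ubiquitin ligase that senses collided ribosomes, read 0.56, 0.42, 0.91 and 0.81 at 0 h, -0.13, -0.18, 0.16 and -0.13 at 48 h, and 0.51, 0.46 and 0.29 at 96 h. Its 48 h arrays lay below all others and its 96 h arrays lay within the 0 h range or just under it, with differences of -0.75 (adjusted p = 0.00667) at 48 h and -0.26 (adjusted p = 0.258) at 96 h. Zfp622, a maturation factor of the large ribosomal subunit, fell by 0.45 at 48 h (adjusted p = 0.0218), a call lost under 6 alternatives. Zfp593, another large-subunit factor, differed by -0.41 (adjusted p = 0.0659). Zfp346, which binds double-stranded RNA, fell, with differences of -0.59 at 48 h and -0.54 at 96 h (adjusted p = 0.00715 and 0.0221). Zfp326, a partner of elongating RNA polymerase in splicing, differed by -0.45 at 48 h (adjusted p = 0.101), and Zfp207, which helps chromosomes attach to the spindle, by -0.23 (adjusted p = 0.114); neither was called.

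Zfp703, a corepressor amplified in human breast cancer, fell by 0.61 at 48 h (adjusted p = 0.00931) and differed by -0.26 at 96 h, not called. Zfp687 and Zfp592, subunits of a shared chromatin complex, differed by 0.26 and -0.28 at 48 h, neither called. Zfp687 was the role gene called higher at 96 h (0.42, adjusted p = 0.033; lost under 8 alternatives). Of 6 listed genes grouped here under imprint or retroelement silencing, 0 were called at 48 h or 96 h by limma, and 1, Zfp932, had an unadjusted p under 0.05 at 48 h (0.0186). Of all features, 18.6% were called in either direction at 48 h and 9.56% at 96 h against 0 h. Zfp57 and Zfp445, which guard genomic imprints, differed by 0.24 and -0.16 at 48 h, and Zfp809, which silences retroviruses through their primer site, by -0.29. Zfp568, which represses a placental Igf2 promoter, differed by -0.09, and Zfp932 and Zfp961 by -0.37 and 0.08. Of the remaining role genes, Zfp106, Zfp217 and Zfp451 differed by -0.25, -0.34 and -0.35, Zfp335 and Zfp609 by -0.33 and 0.24, Zfp423 by 0.04, and Zfp369, the Nrif2 relative of Zfp110, by 0.36, with no call at 48 h. A further probe of Zfp609 was called higher at 96 h against 0 h (0.71, adjusted p = 0.0157) and against 48 h (0.70, adjusted p = 0.0123). The member probe of Zfp609 differed by -0.11 and -0.35 there, not called.

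**Figure D3:**
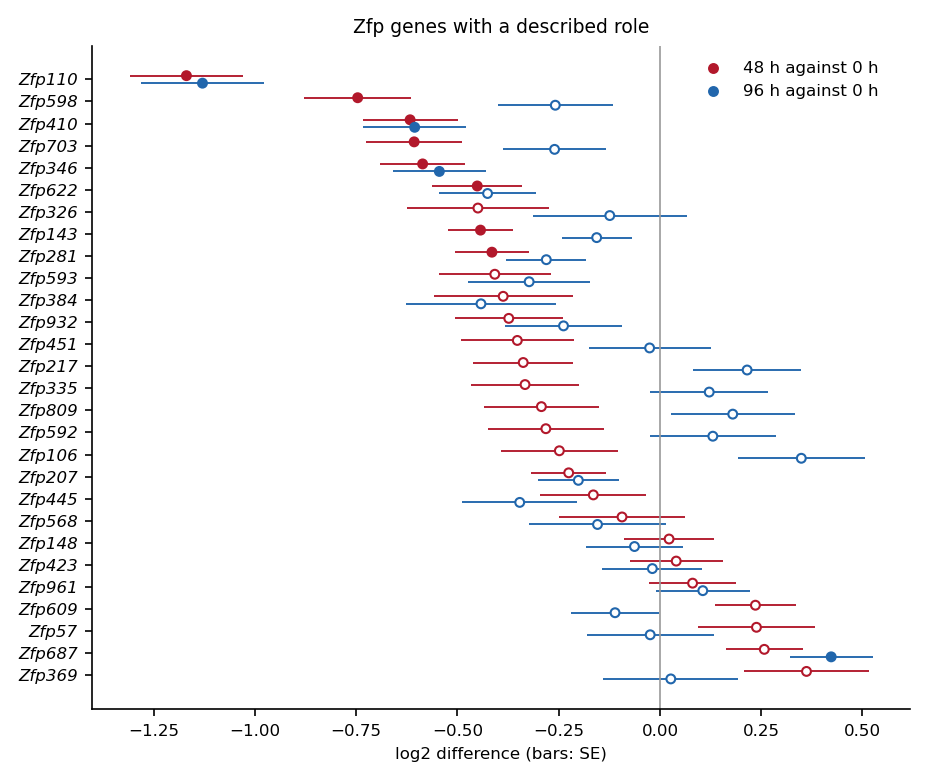
Log2 differences (points) with their SE (bars) of the 28 members with a listed role, at 48 h against 0 h and 96 h against 0 h, ordered by the first; filled points were called at an adjusted p under 0.05. At 48 h the called genes all lie left of 0, with Zfp110 at -1.17, and at 96 h Zfp110, Zfp410 and Zfp346 stay called and lower while Zfp687 lies right of 0 at 0.42.

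At 96 h against 0 h calls in both directions were about even. Of the 271 members, 15 (5.54%) were called lower and 16 (5.9%) higher, where 3.38% of all features were called lower and 6.18% higher. The median of the members was -0.04, against 0.11 for all features and 0.04 for the other named genes. The number called lower was 23 with the replicate block by file-name number, 26 without 0 h replicate 2, and 9 without 96 h replicate 1. The number called higher was 6, 6 and 5 without 0 h replicate 1, 3 or 4, and 7, 3 and 6 without 96 h replicate 1, 2 or 3. Median scaling called 40 lower and 0 higher, quantile normalization 25 and 10, and normexp with quantile normalization 28 and 12. On 48 members (17.7%) every 96 h array lay below every 0 h array, against 8.69% of all features, and on 26 (9.59%) above, against 16.4%. The 96 h comparison shares its 0 h arrays with the 48 h comparison. In both, 12 members were called lower and 6 higher, and 1, Zfp341, was called in opposite directions. The share of all features called in both comparisons was not counted, so these counts only describe the members.

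The 12 largest falls at 96 h were those of Zfp938, Zfp110, Zfp647 and Zfp105, given above, and of 8 further members. Zfp992 (A_55_P1995902, chromosome 4) read 2.62, 2.47, 2.86 and 2.86 at 0 h, 2.40, 1.96, 2.27 and 2.13 at 48 h, and 1.63, 1.64 and 1.97 at 96 h. Each 96 h array lay below each 0 h array and the 48 h mean lay between the others, its lowest array just under the highest at 96 h, with a 96 h difference of -0.96 ± 0.15 (SE, adjusted p = 0.00973). A further probe fell by 0.80 (adjusted p = 0.0107). Zfp981 (A_55_P2125963, chromosome 4) read 1.74, 1.79, 1.67 and 1.84 at 0 h, 1.27, 1.20, 1.34 and 1.10 at 48 h, and 0.54, 0.77 and 1.10 at 96 h. Its group means followed the same order, without overlap between 96 h and 0 h, with a difference of -0.96 ± 0.13 (SE, adjusted p = 0.00645). Its further probe differed by 0.04 (adjusted p = 0.865). The others were Zfp282 (-0.79, adjusted p = 0.0212), Zfp677 (-0.75, adjusted p = 0.0115), Zfp984 (-0.71, adjusted p = 0.00847), Zfp995 (-0.64, adjusted p = 0.0104), Zfp410 (-0.61, adjusted p = 0.0219) and Zfp146 (-0.58, adjusted p = 0.036) as log2 differences. The call of Zfp146 was lost under 10 alternatives. Zfp282 and Zfp146 differed by -0.01 and 0.10 at 48 h, with no call there, and a further probe of Zfp282 differed by -0.23 at 96 h (adjusted p = 0.342). The calls of Zfp110, Zfp647, Zfp677, Zfp938, Zfp981, Zfp984 and Zfp992 at 96 h held under all 22 alternatives.

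Among the rises at 96 h, Zfp763 (A_51_P250123, chromosome 17) read -3.11, -2.36, -2.58 and -3.46 at 0 h, -2.26, -2.70, -2.07 and -2.63 at 48 h, and -1.85, -2.12 and -1.84 at 96 h. The 96 h arrays lay above the 0 h arrays and overlapped those at 48 h, and the rise of 0.94 ± 0.26 (SE, adjusted p = 0.0482) was lost under 18 of 22 alternatives. Zfp273 (A_51_P153973, chromosome 13) read -2.31, -1.76, -2.39 and -2.42 at 0 h, -1.72, -1.70, -1.68 and -2.08 at 48 h, and -1.40, -1.38 and -1.12 at 96 h. All 96 h arrays lay above all earlier ones, with a rise of 0.92 ± 0.18 (SE, adjusted p = 0.0163) that was lost under 3 alternatives, median scaling, the fit of the 2 groups alone and the fit without 96 h replicate 3. Zfp53 read -0.82, -0.74, -0.87 and -0.77 at 0 h, -0.33, -0.34, -0.25 and -0.27 at 48 h, and 0.01, 0.16 and -0.28 at 96 h. Its 96 h and 48 h arrays all lay above its 0 h arrays, and its rise of 0.77 (adjusted p = 0.00722) was lost under median scaling alone. The other rises were Zfp563 (0.84, adjusted p = 0.0263), Zfp957 (0.81, adjusted p = 0.0418), Zfp958 (0.72, adjusted p = 0.0373), Zfp810 (0.71, adjusted p = 0.0287), Zfp111 (0.70, adjusted p = 0.0228), Zfp367 (0.68, adjusted p = 0.0156), Zfp41 (0.67, adjusted p = 0.0267), Zfp329 (0.57, adjusted p = 0.0155) and Zfp710 (0.52, adjusted p = 0.0344) on the log2 scale. Zfp958, Zfp957, Zfp810, Zfp563 and Zfp710 lost the call under 15, 14, 12, 11 and 10 of the alternatives, Zfp710 also with the replicate block by file-name number. With normexp and quantile normalization the differences of Zfp563, Zfp763, Zfp957 and Zfp958 were 0.17, 0.21, 0.18 and 0.12. Zfp939 had the largest positive difference of all members at 96 h against 0 h, 1.06, but 1 array stood apart (-0.70 on 96 h replicate 1, against -2.23 and -2.81 on the other two) and was not called (adjusted p = 0.135); it was named after its values were seen.

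Between 48 h and 96 h, 17 members (6.27%) were called higher and 14 (5.17%) lower at 96 h, where 5.17% of all features were called higher and 5.95% lower. The median of the members was 0.11, against 0.03 for all features and 0.07 for the other named genes, and it was -0.05 with median scaling, which called 1 higher and 3 lower. On 60 members (22.1%) every 96 h array lay above every 48 h array, against 14.2% of all features, and on 25 (9.23%) below, against 13.6%. The number called higher was 10 and 8 without 48 h replicate 1 or 4 and 6, 9 and 9 without 96 h replicate 1, 2 or 3, and the number called lower was 9 and 8 without 48 h replicate 1 or 4 and 4 without 96 h replicate 1. The comparison shares its 48 h arrays with the first, and 8 members were called lower at 48 h and then higher at 96 h against 48 h, and 7 higher at 48 h and then lower. Here too the share of all features called in both was not counted, and shared arrays alone can give such pairs.

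Zfp367 made the largest called step up, at -0.32, -0.29, 0.13 and -0.32 at 0 h, -0.46, -0.63, -0.46 and -0.59 at 48 h, and 0.54, 0.39 and 0.51 at 96 h. Its 96 h arrays lay above all others, and the step of 1.02 ± 0.13 (SE, adjusted p = 0.00314) from 48 h, 2.03-fold, held under all 22 alternatives. Zfp341, whose human counterpart drives transcription of STAT3, read 0.04, 0.07, 0.25 and 0.09 at 0 h, -0.09, -0.40, -0.14 and -0.45 at 48 h, and 0.53, 0.57 and 0.51 at 96 h. The 3 groups did not overlap, the lowest being 48 h and the highest 96 h. Zfp341 fell by 0.38 ± 0.11 (SE, adjusted p = 0.0315) at 48 h, rose by 0.43 ± 0.11 (SE, adjusted p = 0.044) at 96 h against 0 h, calls lost under 9 and 14 alternatives, and rose by 0.81 ± 0.11 (SE, adjusted p = 0.00435) between the times. A further probe gave -0.40, 0.34 and 0.74 in the same comparisons. The other steps up were Zfp646 (0.91, adjusted p = 0.0095), Zfp608 (0.81, adjusted p = 0.0112) and Zfp329 (0.73, adjusted p = 0.00495), and of the role genes Zfp106 and Zfp217 rose by 0.60 and 0.55 (adjusted p = 0.0372 and 0.0278). The calls of Zfp106 and Zfp217 were each lost under 10 of the 22 alternatives. That of Zfp646 was lost under median scaling and when the probes of a gene were averaged. Those of Zfp608 and Zfp329 were lost under 2 and 1 of the alternatives.

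The largest steps down were those of Zfp503 (-1.31, adjusted p = 0.026), Zfp790 (-0.98, adjusted p = 0.0115), Zfp628 (-0.88, adjusted p = 0.00637), Zfp663 (-0.85, adjusted p = 0.01) and Zfp282 (-0.78, adjusted p = 0.0173) as log2 differences. Zfp503, a corepressor of the same small family as Zfp703, lost its call under 7 alternatives and differed by -0.44 with normexp and quantile normalization. A further probe of Zfp790 differed by 0.28 (adjusted p = 0.216), against the sign of its member probe. For Zfp628, the brightest member, probes went opposite ways. The member probe was called higher at 48 h (0.43) and lower at 96 h against 48 h (-0.88). A further probe was called lower at 48 h (-0.32) and higher at 96 h against 48 h (0.45). No direction is given for the gene. Over the 98 further probes of 81 members, there were 24 pairs of a member probe called at 48 h and a further probe, and in 16 of the 24 pairs the signs were the same. Both were called with the same sign in 8 pairs and with opposite signs in 2.

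Most of the genes stand near others of their kind. With at most 2 other protein-coding genes allowed between neighbours, 270 members were placed in 152 runs. Of them, 96 stood alone and 82 lay in 9 runs of at least 5. Members of these runs and the others had like medians, -0.19 and -0.20 at 48 h and -0.08 and -0.03 at 96 h. Whether runs differ from each other was not tested, and 8.03% of all features were called lower and 10.5% higher at 48 h. On chromosome 17, the run of 16 members between Zfp677 and Zfp946 had 7 called lower and 1 higher at 48 h, with a median of -0.42. On chromosome 13 the run of 14 members between Zfp712 and Zfp273 had 0 lower and 1 higher, with a median of 0.04. Within the chromosome 17 run, Zfp760, Zfp677, Zfp51, Zfp994, Zfp943, Zfp947 and Zfp758 fell, with differences of -0.88, -0.64, -0.63, -0.59, -0.47, -0.45 and -0.44. Zfp53 in their midst rose by 0.51. Neighbours often share long stretches of sequence, and how far their transcripts share a probe was not tested.

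**Figure D4:**
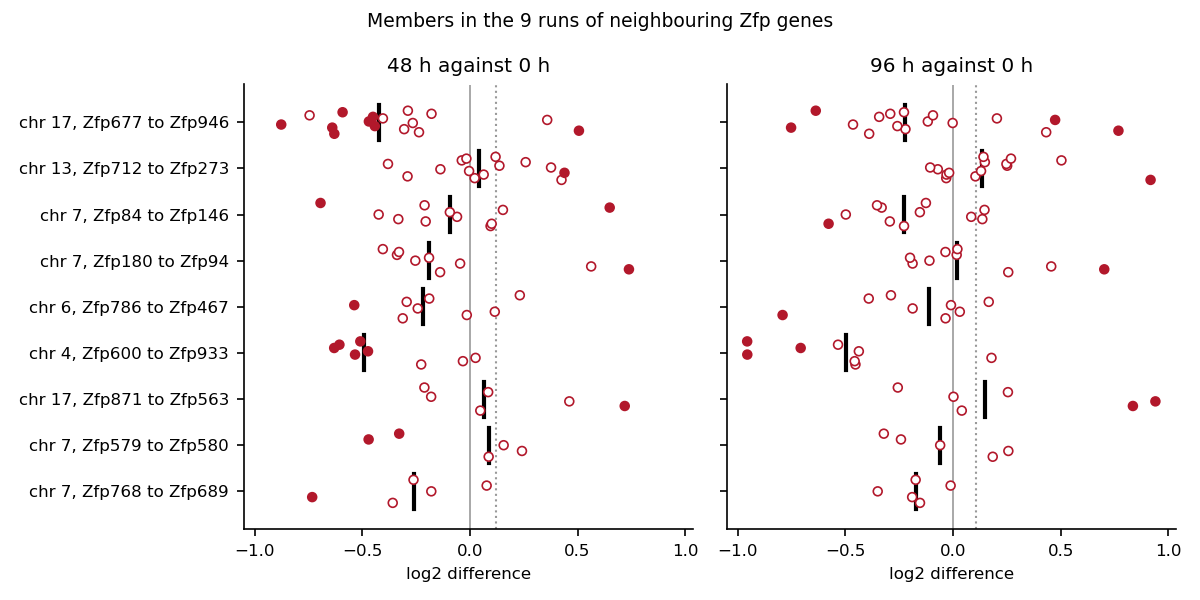
Log2 differences of the members in the 9 runs of at least 5 neighbouring Zfp members, at 48 h against 0 h (left) and 96 h against 0 h (right); filled points were called, black bars are the medians, the solid line is 0 and the dotted line is the median of all features. The chromosome 4 run is lowest in both panels, with medians of -0.49 and -0.50, and the chromosome 13 run lies around 0.04 and 0.14.

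The run on chromosome 4 between Zfp600 and Zfp933 had 8 members, of which 5 were called lower at 48 h and 3 at 96 h and none higher (3.38% of all features were called lower at 96 h), with medians of -0.49 and -0.50. It belongs to a mouse cluster of KRAB genes whose deletion in embryonic stem cells releases some retroelements. At 48 h the called log2 differences were Zfp984 (-0.63, adjusted p = 0.00426), Zfp985 (-0.61, adjusted p = 0.0183), Zfp981 (-0.53, adjusted p = 0.0166), Zfp992 (-0.51, adjusted p = 0.0301) and Zfp982 (-0.47, adjusted p = 0.0265). The call of Zfp981 was lost under 3 alternatives and that of Zfp992 under 7, and a further probe of Zfp981 differed by 0.20 (adjusted p = 0.282). Zfp534, Zfp600 and Zfp933 differed by -0.23, -0.03 and 0.03, not called. At 96 h Zfp992, Zfp981 and Zfp984 were called, Zfp985, Zfp982, Zfp534 and Zfp600 differed by -0.53, -0.44, -0.45 and -0.46, and Zfp933 by 0.18. Zfp984 read 3.50, 3.37, 3.74 and 3.68 at 0 h, 2.94, 2.95, 3.01 and 2.86 at 48 h, and 2.83, 2.88 and 2.88 at 96 h. All of its later arrays lay below all 0 h arrays, with little spread, while a further probe of it was called at 96 h (-0.53, adjusted p = 0.0261) and not at 48 h (-0.11).

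Promoters of 5 of these neighbours are shown to compare near copies, those of Zfp981, Zfp984 and Zfp985, which fell at 48 h, and of Zfp600, which was not called, with that of Zfp933, also not called. The lines give the bases around the start of transcription from RefSeq, build GRCm38.p6, with capitals for the matches to any of the motifs searched:
Zfp981, chr4:146514670-146514969, + strand: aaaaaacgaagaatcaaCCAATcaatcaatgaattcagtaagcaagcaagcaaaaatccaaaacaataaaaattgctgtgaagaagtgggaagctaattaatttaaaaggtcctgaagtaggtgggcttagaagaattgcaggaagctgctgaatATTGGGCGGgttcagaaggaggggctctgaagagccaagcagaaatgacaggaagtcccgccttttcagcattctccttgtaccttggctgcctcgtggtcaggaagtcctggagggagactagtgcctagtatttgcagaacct
Zfp984, chr4:147809739-147810038, - strand: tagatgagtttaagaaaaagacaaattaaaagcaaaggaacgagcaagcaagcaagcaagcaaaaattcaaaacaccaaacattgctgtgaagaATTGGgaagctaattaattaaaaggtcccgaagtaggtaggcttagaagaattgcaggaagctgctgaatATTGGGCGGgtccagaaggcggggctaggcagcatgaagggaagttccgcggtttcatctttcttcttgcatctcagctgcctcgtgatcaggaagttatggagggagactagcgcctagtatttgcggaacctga
Zfp985, chr4:147553027-147553326, + strand: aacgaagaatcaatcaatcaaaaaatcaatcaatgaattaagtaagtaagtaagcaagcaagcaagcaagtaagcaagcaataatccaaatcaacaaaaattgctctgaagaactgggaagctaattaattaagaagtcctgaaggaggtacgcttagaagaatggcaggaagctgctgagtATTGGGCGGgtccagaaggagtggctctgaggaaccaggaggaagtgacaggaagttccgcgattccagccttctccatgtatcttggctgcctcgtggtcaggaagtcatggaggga
Zfp600, chr4:146156577-146156876, + strand: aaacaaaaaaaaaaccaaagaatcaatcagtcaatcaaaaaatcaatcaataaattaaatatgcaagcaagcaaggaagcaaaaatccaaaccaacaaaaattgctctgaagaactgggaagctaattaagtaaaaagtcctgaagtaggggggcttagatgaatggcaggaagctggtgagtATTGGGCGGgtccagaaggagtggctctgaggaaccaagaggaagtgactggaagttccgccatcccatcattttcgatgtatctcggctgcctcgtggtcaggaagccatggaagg
Zfp933, chr4:147848369-147848668, - strand: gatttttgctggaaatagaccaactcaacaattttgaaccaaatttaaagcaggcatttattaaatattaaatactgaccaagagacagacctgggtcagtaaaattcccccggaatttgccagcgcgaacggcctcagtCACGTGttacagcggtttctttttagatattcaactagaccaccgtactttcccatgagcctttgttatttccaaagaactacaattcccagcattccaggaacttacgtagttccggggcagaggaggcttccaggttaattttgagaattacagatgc

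The promoters were aligned over their whole length with gaps allowed, which raises the share of identical bases between unrelated sequences. By this measure 82.7% of bases were identical between Zfp981 and Zfp984 and 79.7% between Zfp981 and Zfp985. The share was 78.0% between Zfp981 and this promoter of Zfp600, against 54.7% between Zfp981 and Zfp933. That last value was close to those of unrelated promoters such as Zfp981 and Zfp938 (49.0% and 54.3% for 2 starts). In Zfp981, Zfp984, Zfp985 and Zfp600 the letters ATTGGGCGG, a CCAAT box read on the other strand (ATTGG) that overlaps an Sp1-type GC box (GGGCGG), began 95, 86, 68 and 67 bases before the start. These 9 letters were found on either strand in 7 of the members and in 2.46% of 284 member promoters, against 0.256% of all 32851 promoters. The 7 genes were Zfp600, Zfp981, Zfp982, Zfp984 and Zfp985 on chromosome 4 and Zfp947 and Zfp994 of the chromosome 17 run. On their member probes all but Zfp600 were called lower at 48 h, against 8.03% of all features. Further probes of Zfp981 and Zfp984 were not called at 48 h, as given above. The stretch was picked out after the falls on chromosome 4 were seen, and it is part of copied sequence, so the count is a description and gets no test.

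Over the family, 230 members had a promoter of this kind, 284 promoters in all, and the further motifs were searched on both strands. Member promoters held a median of 14.5 CpG dinucleotides, against 7 in all promoters, and those of members called lower and higher at 48 h held 19 and 11. The GC box GGGCGG was in 46.5% of member promoters and 35.7% of all, and in 68.4% of the 57 promoters of members lower at 48 h and 23.5% of the 17 of members higher. CCAAT was in 47.5% of member promoters and 37.4% of all, the ETS site CCGGAAG in 19.4% and 8.86%, and the cAMP response element TGACGTCA in 4.58% and 1.79%. The NRF1 core GCGCATGC was in 5.28% and 2.71%, and the YY1 core AAGATGGC in 5.28% and 2.75%. The TATA letters TATAAA were in 6.69% and 13.6% and the E-box CACGTG in 7.39% and 7.15%. In promoters of members lower and higher at 48 h, CCAAT was in 54.4% and 52.9% and the ETS site in 17.5% and 29.4%. The cAMP response element was in 0% and 5.88% of them and the E-box in 15.8% and 0%. The NRF1 core was in 8.77% and 0%, and the YY1 core and TATA letters each in 7.02% and 0%. Of the 57 promoters, 6 held ATTGGGCGG. Whether these sets differ in any motif was not tested. GGGCGG and CACGTG add to the CpG count, and promoters of 1 gene overlap in part.

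Genes for the partners of KRAB repression moved in several directions. The list held 41 names, with Tasor and Hells also under their older names Fam208a and Lsh. All 39 genes were tested and were above background on all 11 arrays. At 48 h against 0 h 9 were called lower and 2 higher (8.03% and 10.5% of all features). At 96 h against 0 h 2 were lower and 2 higher (3.38% and 6.18%), and at 96 h against 48 h 0 lower and 7 higher (5.95% and 5.17%). The core pair was not called: Trim28 differed by -0.17 at 48 h and 0.01 at 96 h and Setdb1 by -0.15 and 0.03. Atf7ip, the cofactor that stabilises Setdb1, fell by 1.14 ± 0.12 (SE, adjusted p = 0.00163) at 48 h and differed by -0.44 at 96 h (adjusted p = 0.0613). Tasor, the scaffold of the HUSH silencing complex, fell, with differences of -0.76 at 48 h and -0.68 at 96 h (adjusted p = 0.00199 and 0.00784). Its partner Morc2a fell by 0.49 at 48 h (adjusted p = 0.0192). Of the NuRD remodeller, Chd3, Mta1 and Mta2 fell, with differences of -0.82, -0.51 and -0.47 at 48 h (adjusted p = 0.00456, 0.00811 and 0.019). Of the other H3K9 methyltransferase genes, Suv39h1 rose by 1.06 at 48 h (adjusted p = 0.0138) and Suv39h2 fell by 0.47 (adjusted p = 0.0204). Ehmt1 fell, with differences of -0.38 at 48 h and -0.49 at 96 h (adjusted p = 0.0272 and 0.0252). Cbx5, which encodes the H3K9me3 reader HP1 alpha, rose by 0.58 at 48 h (adjusted p = 0.0258). At 96 h the maintenance DNA methyltransferase Dnmt1 and the remodeller Atrx rose by 0.77 and 0.53 (adjusted p = 0.0447 and 0.0393).

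Other zinc finger families, set beside the members by symbol, had medians below 0 at 48 h as well. These were -0.22 for 36 Zbtb genes (7 lower, 1 higher), -0.16 for 15 Zkscan and Zscan genes (2 lower, 1 higher), -0.38 for 11 Klf genes (4 lower, 0 higher). They were -0.17 for 13 Zc3h genes, whose fingers bind RNA (2 lower, 0 higher), -0.40 for 5 Gli and Ikzf genes (1 lower, 0 higher) and -0.14 for 20 genes with a letter after the Zfp number (1 lower, 0 higher). Of all features, 8.03% were called lower and 10.5% higher at 48 h. At 96 h the medians of these families lay between -0.25 and 0.04. Whether the members differ from these families was not tested.

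The signals of the family covered a wide range, which is a description of probes, not of transcript amounts. The brightest probes were those of Zfp628, Zfp408, Zfp658, Zfp622 and Zfp663 and the dimmest those of Zfp366, Zfp667, Zfp420, Zfp786 and Zfp808. With the members split by mean signal, the dimmer 135 had a median of -0.14 at 48 h with 22 called lower and 9 higher. The brighter 136 had a median of -0.23 with 34 and 7, where 8.03% of all features were called lower and 10.5% higher. On their member probes Zfp40, Zfp1, Zfp429, Zfp423 and Zfp148 changed least, with differences at 48 h of 0.03, -0.03, 0.02, 0.04 and 0.02. A further probe of Zfp148 was called lower at 96 h, as given above. By member probe, 176 members were called in none of the 3 comparisons. Just outside the rule, 5 genes were above background on 10 arrays, with mean signals at 0 h of -3.49 for Zfp438 to -2.90 for Zfp748. Just inside it the dimmest members had -3.56 for Zfp667 to -2.95 for Zfp786. Of the 35 tested genes on fewer than 11 arrays, 3 were called lower at 48 h (Zfp516, Zfp945 and Zfp623) and 1 higher (Zfp92). The shares of all features were 8.03% and 10.5% there. These genes were detected mainly in the group where their signal was higher, so their calls are only described. Arrays above background at 0 h and 48 h were 3 and 0 of 4 for Zfp516, 4 and 2 for Zfp945 and Zfp623, and 1 and 3 for Zfp92. At 96 h against 0 h, 0 of the 35 were called by limma (3.38% of all features lower and 6.18% higher), and 6 had an unadjusted p under 0.05.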

How the data were processed

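RNA of 11 samples (0 h and 48 h, 4 each; 96 h, 3) was hybridised to 1-colour Agilent mouse arrays whose annotation is built on mm9, per the file headers. The processed signal intensity and the flags (other values of 0 or 1 per spot) were made by Feature Extraction 11.0.1.1, per the file headers, with background subtraction and no normalization between arrays. The authors also deposited a table of log2 values; limma is named in the submitters' processing notes, with no version. Over all probes the log2 values in the authors' deposited table correlated at 0.99998 with normexp (offset 50) followed by quantile normalization of the spots' median intensity. No count of reads lies behind array values, and the number of arrays limits their precision.

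Spots of a probe were averaged after control spots and outlier flags (125 to 194 spots per array) were left out. Each array's log2 signals were shifted so that their 75th percentile, taken with control spots left out, became 0. Probes well above background on at least 3 arrays were kept (34269), with the brightest probe standing for a gene, which gave 25079 features. Symbols came from RefSeq accessions through the RefSeq table of GRCm38.p6; as the array was built on mm9, that table was used for names and gene order, and the promoters are printed with their GRCm38.p6 coordinates. limma 3.58.1 in R 4.3.3 (lmFit and eBayes) was fitted over the 3 groups, with 8 residual degrees of freedom, and p-values were adjusted by Benjamini-Hochberg over all features. Calls are those with an adjusted p under 0.05. The fit was tested on simulated data. Figures and promoter searches used Python 3.11.15 with matplotlib 3.10.9 and Biopython 1.88.

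The members and lists were chosen with earlier results of these data known. Named were the 12 called members with the largest difference in each direction at 48 h and at 96 h against 0 h, the 5 in each direction at 96 h against 48 h, the 5 with the smallest change, the 5 brightest and the 5 dimmest, the genes just outside the detection rule, and the listed role and partner genes. Members with and without a KRAB domain were not set apart here. The values of 1 marker gene are not reported here.

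Deviations from the group means of 0 h and 48 h samples with the same title number correlated at 0.28, 0.16, 0.20 and 0.14. For 96 h the title numbers gave 0.36, -0.04 and 0.00 with 0 h. The numbers 1, 3 and 4 of the file names gave 0.36, 0.23 and 0.11 with 0 h, and 0.30, 0.30 and 0.23 with 48 h. These values were not set against samples of different numbers, so whether either numbering pairs the samples was not tested. The alternatives were other scalings, normexp with quantile normalization, the deposited table, other filters and probe rules, the 2 groups alone, both replicate blocks, and leaving out each array.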

Additional observations from a re-analysis of the deposited data

Results flagged for a closer look

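Of 158 groups of 4 arrays of the named members, 8 held 1 array far from the other three by Dixon's criterion on the gap to the nearest array over the range; chance gives about 1 in 20. At 48 h, Zfp106 read 0.04 on replicate 1 (0.57 to 0.64 on the others), Zfp931 read -0.16 on replicate 1 (0.00 to 0.01), Zfp598 read 0.16 on replicate 3 (-0.18 to -0.13) and Zfp273 read -2.08 on replicate 4 (-1.72 to -1.68), in scaled log2 signal. At 0 h, replicate 2 stood apart for Zfp286 at -1.97 (-2.63 to -2.56), Zfp420 at -3.89 (-3.22 to -3.17) and Zfp592 at 2.18 (2.64 to 2.73), and replicate 3 for Zfp367 at 0.13 (-0.32 to -0.29).

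The effect at 96 h differed from that at 48 h, tested as the limma contrast of 96 h against 48 h, for the 10 members listed here. They are the 5 largest called differences in each direction, chosen by this same contrast, and other named members were called in it too. The difference was positive for Zfp367 (1.02), Zfp646 (0.91), Zfp608 (0.81), Zfp341 (0.81) and Zfp329 (0.73). It was negative for Zfp503 (-1.31), Zfp790 (-0.98), Zfp628 (-0.88), Zfp663 (-0.85) and Zfp282 (-0.78). These are values of the member probes, and the calls of Zfp646, Zfp503 and Zfp628 were lost when the probes of a gene were averaged. All 10 set 96 h arrays of 1 slide against 48 h arrays of another, so slide and time cannot be told apart in them.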

How the results depend on the processing

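At 48 h against 0 h with all arrays in, the counts of members called kept within 1.5 times of 16 higher and 56 lower except for 0 higher with median scaling and 32 lower with no filter on dim probes; without 1 array they ranged from 10 to 19 higher and from 26 to 64 lower. The members' median minus that of all features (-0.32) was -0.15 with normexp and quantile normalization, -0.15 in the deposited table and -0.43 with no filter, and -0.36 to -0.28 without 1 array. At 96 h against 0 h the 16 higher became 0 with median scaling, 10 with quantile normalization, 4 with no filter, 1 with the 2 groups alone and 8 with the title block, and the 15 lower became 40 with median scaling, 25 with quantile normalization, 28 with normexp, 28 in the deposited table, 9 with no filter, 24 with only probes above background on all arrays, 7 with the 2 groups alone and 23 with the replicate block by file-name number; without 1 array they ranged from 3 to 17 and from 9 to 26, and the median minus that of all features (-0.15) from -0.18 to -0.13; that median was -0.06 with normexp, -0.06 in the deposited table and -0.09 with probes above background on all arrays. At 96 h against 48 h the 17 higher became 1 with median scaling, 30 with normexp, 30 in the deposited table, 8 with no filter and 28 with probes above background on all arrays, and the 14 lower became 3 with median scaling, 9 with no filter and 7 with the title block; without 1 array they ranged from 6 to 22 and from 4 to 14, and the median difference (0.08; 0.04 with normexp and 0.04 in the deposited table) from 0.03 to 0.12. The causes were not tested. Of 83 calls of named genes, 22 held under all 22 alternatives and 0 reversed. Zfp609, not called at 96 h (-0.11), was 0.30 (adjusted p = 0.0468) when probes of a gene were averaged. For the 96 h samples the title block rests on a shared number alone, and whether either numbering pairs the samples was not tested. Signal over background limits the dimmest probes.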

Other observations

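Zfp704 had the largest difference of all members at 96 h against 48 h, 1.50, and just missed the threshold (adjusted p = 0.0504). It read -2.67, -3.15, -1.93 and -2.21 at 0 h, -3.75, -4.00, -2.20 and -2.88 at 48 h, and -2.07, -1.42 and -1.63 at 96 h, so every 96 h array lay above every 48 h array while the 48 h arrays themselves were widely spread. The gene was named after its values were seen.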
